A study of Mus musculus with 12 samples.

Results

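Fatty acid oxidation and ketogenesis were followed in 32 genes of mouse liver, measured by RNA-Seq in 12 liver libraries. The 32 genes were taken as a fixed set of symbols covering the mitochondrial spiral, the peroxisomal pathway and ketone body interconversion, and all 32 were found among the 22456 genes of the expression matrix. By the compartment of their products, 18 were counted as mitochondrial, 10 as peroxisomal, 2 as belonging to both organelles (*Eci2* and *Crat*) and 2 as ketone body genes (*Acat1* and *Bdh1*). The mice were males aged 2 to 8 months on the BALB/cByJ strain. *Lpin1*-/- mice carried the fatty liver dystrophy (fld) mutation in every tissue, and *Lpin1*+/+ mice were wild type littermates. Each genotype was studied after a 16-hour fast in single housing or after the same fast and 5 hours of refeeding with chow. The resulting 4 groups held 3 mice each. All groups shared the strain, the colony and the fast, and feeding state cannot be told apart from the time of day, since refed livers were taken later in the day. Lipin 1 was missing from all tissues, not from hepatocytes alone, so differences in liver cannot be told apart from effects that begin in other organs.

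In liver, fatty acids are activated to acyl-CoA, carried into mitochondria as acylcarnitines and shortened by rounds of dehydrogenation, hydration, a further dehydrogenation and thiolysis. Very long chains are shortened in peroxisomes. During fasting the acetyl-CoA that results is turned into ketone bodies, and many genes of these steps are known targets of the nuclear receptor PPARα, for which lipin 1 has been described as a coactivator besides its activity as a phosphatidic acid phosphatase.

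*Lpin1* itself was checked first, in units of RPKM, a read count scaled to the length of the gene and the depth of the library. In fasted *Lpin1*+/+ liver it stood at 22.0, 0.726 and 1.76 RPKM, against 0.0597, 0.0566 and 0.0368 RPKM in fasted *Lpin1*-/- liver. In refed liver the values were 2.92, 0.784 and 2.76 RPKM in *Lpin1*+/+ and 0.00573, 0.0238 and 0.00962 RPKM in *Lpin1*-/- mice. Every *Lpin1*-/- library was below every *Lpin1*+/+ library of its feeding state. The difference did not pass the test in either state, in fasted (log2 fold change −2.19 ± 0.72 (SE), adjusted p = 0.0562) or refed liver (log2 fold change −1.55 ± 0.72 (SE), adjusted p = 0.231). Over the alternatives run, the value of *Lpin1* ranged from −4.42 to −1.05 in fasted liver (adjusted p from 0.00797 to 0.131) and from −4.13 to −1.35 in refed liver (adjusted p from 0.0104 to 0.402). It passed the test in both states with a pseudocount of 0.1 and without replicate 1 of the fasted *Lpin1*+/+ group, the library at 22.0 RPKM. All tests were made with limma on log2(RPKM + 1) over the 11507 genes whose mean reached 0.5 RPKM, with Benjamini-Hochberg adjustment over those genes and a threshold of 0.05. All 32 members were among the genes tested. From the steps between low RPKM values, the deepest library held 1.34 times the reads of the shallowest.

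The tissue label was checked on 7 hepatocyte markers, *Alb* among them, which summed to between 32659 and 75964 RPKM and were detected in every library. A few libraries stood apart by markers of other cells. Replicate 2 of the refed *Lpin1*+/+ group had a sum of 930.3 RPKM over 10 Kupffer cell and macrophage markers, against 180.0 and 109 in the other two libraries of its group, and the lowest hepatocyte sum of all. Replicate 1 of the fasted *Lpin1*-/- group had a sum of 999.7 RPKM over the same markers, against 508 and 367 in its group, and 457 RPKM over 7 cholangiocyte markers, against 57.6 and 25.2. Each of these libraries was the highest of the 12 for 5 of the 10 Kupffer markers. Replicate 1 of the fasted *Lpin1*+/+ group had a sum of 123 RPKM over 8 lymphocyte and neutrophil markers, against 17.3 and 13.0 in its group.

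Some markers or marker sums differed between the genotypes. The sum of 9 stellate cell markers was 314 to 443 RPKM in fasted *Lpin1*-/- and 106 to 268 RPKM in fasted *Lpin1*+/+ liver, without overlap. Its largest marker was *Dcn*, at 179 to 264 RPKM in fasted *Lpin1*-/- and 61.8 to 144 RPKM in fasted *Lpin1*+/+ liver. *Des* and *Colec11* did not overlap either, while *Lrat*, *Reln*, *Col1a1*, *Col3a1*, *Hgf* and *Ecm1* did. Of 8 endothelial markers 1, *Lyve1*, was called higher in fasted *Lpin1*-/- liver. In refed liver the hepatocyte sum was 62029 to 66993 RPKM in *Lpin1*-/- and 32659 to 61037 RPKM in *Lpin1*+/+ mice, also without overlap. Of the 7 markers 1, *Ass1*, was called higher, and the markers did not all move together. *Alb* stood at 20772, 11777 and 26536 RPKM in *Lpin1*+/+ and at 35098, 32297 and 32902 RPKM in *Lpin1*-/- libraries. *Apoa1* overlapped and was mostly lower in *Lpin1*-/- liver, at 17029, 13715 and 17013 RPKM against 10341, 14354 and 14561 RPKM. Of the Kupffer markers, *C1qa* stood at 53.1 to 93.6 RPKM in fasted *Lpin1*+/+ and 111 to 341 RPKM in fasted *Lpin1*-/- liver. *C1qb* stood at 36.4 to 71.9 and 81.2 to 234 RPKM, also without overlap. The other Kupffer markers overlapped in fasted liver, as did the Kupffer sums (192 to 395 and 367 to 999.7 RPKM). None of the 10 Kupffer markers and none of the 9 stellate cell markers passed the test in either state. The part of these cells in the member values was not tested, and counts are also given without both libraries with high Kupffer markers. Leaving those libraries out does not remove the gap between genotypes in *C1qa* and *C1qb* in fasted liver. In whole liver, fewer cells of a type and less RNA per cell cannot be told apart.

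**Figure D1:**
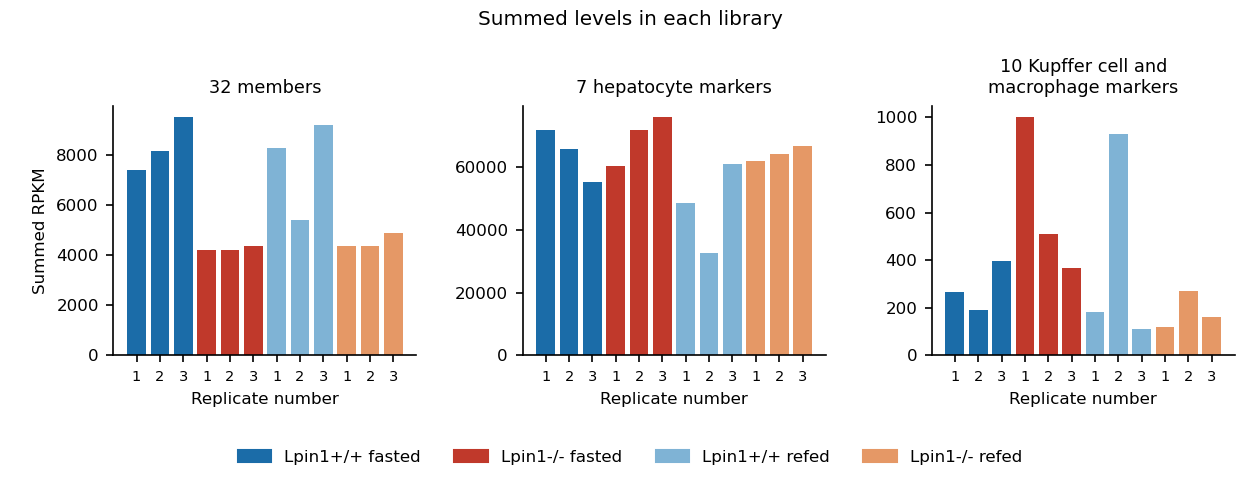
Summed RPKM in each of the 12 libraries (bars, colored by group, x axis: replicate number) of the 32 members, of 7 hepatocyte markers and of 10 Kupffer cell and macrophage markers. The member sum is 4224 to 4355 RPKM in fasted *Lpin1*-/- and 7406 to 9512 RPKM in fasted *Lpin1*+/+ liver, and the tall Kupffer bars are replicate 1 of fasted *Lpin1*-/- (999.7 RPKM) and replicate 2 of refed *Lpin1*+/+ (930.3 RPKM).

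The first comparison asked how the loss of lipin 1 changed the pathway in fasted liver, the state in which it is most used. Of the 32 members, 22 passed the test and all 22 were lower in *Lpin1*-/- liver, where 13.2% of all genes tested were called lower. The log2 fold change was below 0 for all 32 members, though *Acsl5*, *Echs1* and *Eci2*, the 3 nearest to 0, turned to at most 0.10 under some alternatives, and its median was −1.23, against −0.14 over all genes tested. For 26 of the 32 members every *Lpin1*-/- library was below every *Lpin1*+/+ library, a pattern seen in 22.2% of all genes tested. The members summed to between 7406 and 9512 RPKM in *Lpin1*+/+ and between 4224 and 4355 RPKM in *Lpin1*-/- libraries. By class, 11 of the 18 mitochondrial members were called (median −1.09), 8 of the 10 peroxisomal members (median −1.29), 1 of the 2 members of both organelles and both ketone body genes. A difference between the classes was not tested. After rescaling of the libraries by their median ratio 16 were called.

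Of the 22 calls, 13 were kept when each of the 12 libraries was left out in turn (*Acadm*, *Hadha*, *Hadhb*, *Hadh*, *Eci1*, *Etfdh*, *Abcd2*, *Abcd3*, *Ehhadh*, *Decr2*, *Crot*, *Acat1* and *Bdh1*). Without replicate 3 of the fasted *Lpin1*+/+ group 13 calls remained, and *Acsl1*, *Cpt2*, *Acadvl*, *Acadl*, *Decr1*, *Hsd17b4*, *Acaa1a*, *Acaa1b* and *Crat* were lost, at adjusted p from 0.0638 to 0.186. The other losses with a single library of the fasted groups left out were of *Acsl1* and *Hsd17b4* (*Lpin1*+/+ replicate 1), *Acaa1b* and *Decr1* (*Lpin1*+/+ replicate 2), *Acaa1b*, *Acsl1*, *Cpt2* and *Hsd17b4* (*Lpin1*-/- replicate 1), *Acaa1b*, *Decr1* and *Hsd17b4* (*Lpin1*-/- replicate 2) and *Acaa1a*, *Acaa1b* and *Decr1* (*Lpin1*-/- replicate 3). *Acaa1b* was also lost without replicate 1 of the refed *Lpin1*+/+ group or any 1 refed *Lpin1*-/- library. Leaving out both libraries with high Kupffer markers, an alternative chosen after seeing the data, gave 22 calls. Without replicate 1 of the fasted *Lpin1*+/+ group 21 were called.

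**Figure D2:**
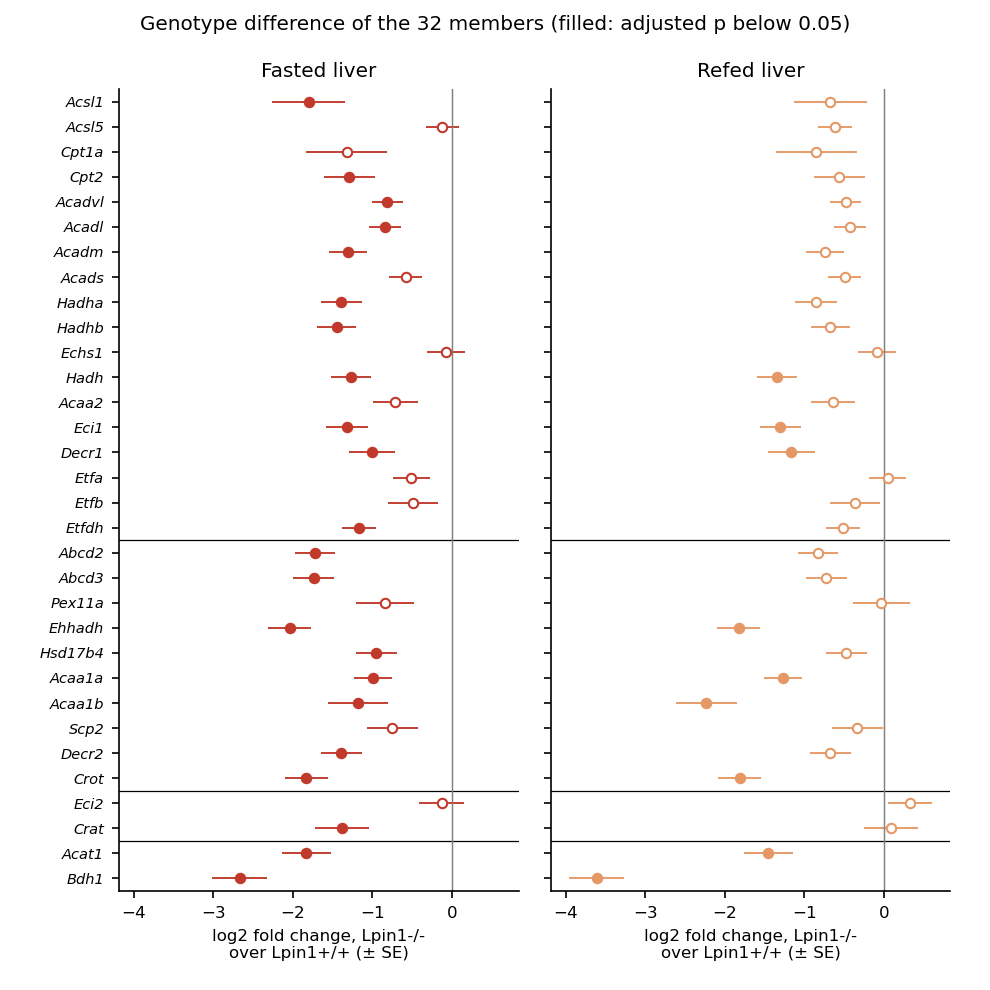
log2 fold change of *Lpin1*-/- over *Lpin1*+/+ liver (x axis) for each member (y axis, in order of pathway step, lines between compartments) in fasted and refed liver, with points for the estimates, bars for ± SE and filled points for adjusted p below 0.05 (limma). In fasted liver all 32 points lie below 0 and 22 are filled, and in refed liver 29 lie below 0 and 9 are filled, with *Bdh1* lowest in both panels (−2.67 and −3.61).

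Both ketone body genes fell in both feeding states. *Bdh1* (chr16:31422280-31458901 on GRCm38) encodes the mitochondrial dehydrogenase that converts acetoacetate to 3-hydroxybutyrate, the main circulating ketone body. It stood at 130.3, 173 and 239.8 RPKM in fasted *Lpin1*+/+ and at 43.5, 24.8 and 17.8 RPKM in fasted *Lpin1*-/- liver, the lowest log2 fold change of the 32 members (log2 fold change −2.67 ± 0.35 (SE), adjusted p = 0.000836). In refed liver it stood at 187, 188 and 299.9 RPKM in *Lpin1*+/+ and at 11.9, 18.4 and 22.7 RPKM in *Lpin1*-/- mice (log2 fold change −3.61 ± 0.35 (SE), adjusted p = 0.000544). In both feeding states the highest *Lpin1*-/- library was below the lowest *Lpin1*+/+ library. A gene model on the opposite strand, *Gm15743*, held 10.1% of the *Bdh1* read-length sequences, and the strand setting of the counting was not given in the sources used here, so reads of the 2 genes may not be fully separated.

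*Acat1* (chr9:53580522-53610382) encodes the mitochondrial acetoacetyl-CoA thiolase, which acts in the making and the use of ketone bodies. It stood at 288, 582 and 564 RPKM in fasted *Lpin1*+/+ and at 126, 117 and 139 RPKM in fasted *Lpin1*-/- liver (log2 fold change −1.83 ± 0.31 (SE), adjusted p = 0.00286). In refed liver its values were 532, 292 and 485 RPKM in *Lpin1*+/+ and 118, 168 and 185 RPKM in *Lpin1*-/- mice (log2 fold change −1.45 ± 0.31 (SE), adjusted p = 0.0211). In both states the genotypes were fully apart. The call in refed liver was lost, at adjusted p from 0.0531 to 0.0895, when any 1 library of the refed groups except *Lpin1*+/+ replicate 2 was left out.

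The promoter of *Bdh1* is shown because its gene had the lowest log2 fold change, at the more upstream of its 2 RefSeq starts. It held no GC box (GGGCGG), while the window of the other start held one. The bases upstream of the start and outside annotated exons are given 5′ to 3′ on the strand of the gene, with any GC box on either strand in capitals. *Ehhadh*, the peroxisomal member with the lowest value in fasted liver, is set beside it and held 2 GC boxes. The windows are chr16:31422047-31422279 (plus strand) and chr16:21787835-21788084 (minus strand) on GRCm38.p6.
Bdh1: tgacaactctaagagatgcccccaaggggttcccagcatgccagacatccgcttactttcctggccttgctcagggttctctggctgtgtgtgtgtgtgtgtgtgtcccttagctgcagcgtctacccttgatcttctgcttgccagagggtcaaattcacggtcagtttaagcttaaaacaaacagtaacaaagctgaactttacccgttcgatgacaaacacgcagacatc
Ehhadh: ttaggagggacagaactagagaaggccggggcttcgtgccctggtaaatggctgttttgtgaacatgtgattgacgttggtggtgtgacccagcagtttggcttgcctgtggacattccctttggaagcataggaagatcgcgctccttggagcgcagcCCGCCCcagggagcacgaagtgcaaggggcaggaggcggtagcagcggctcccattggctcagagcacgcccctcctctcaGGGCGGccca

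RefSeq promoter windows, from 250 bases before to 50 bases after the start, were matched for 26 of the 32 members, and a motif was counted for a gene if any window of the gene held it. The GC box was found in 20 of the 26 (76.9%), against 67.6% of 8752 genes tested, on either strand. The nuclear receptor half-site AGGTCA was found in 5 (19.2%, against 15.6%), in *Cpt1a*, *Acadvl*, *Acadm*, *Echs1* and *Scp2*. A direct repeat of that half-site with 1 base between, written AGGNCANAGGNCA, was found in 0 of 26 genes, against 0.343% of all. The TATA box TATAAA was found in 0 (9.24% of all) and CCAAT in 12 (46.2%, against 42.7%). These are counts of letters in short windows.

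Of the 4 genes of fatty acid activation and carnitine entry, 2 fell in fasted *Lpin1*-/- liver. *Acsl1*, the main long-chain acyl-CoA synthetase of liver, stood at 445, 246 and 393 RPKM in *Lpin1*+/+ and at 84.2, 121 and 97.3 RPKM in *Lpin1*-/- libraries (log2 fold change −1.80 ± 0.46 (SE), adjusted p = 0.0198). The groups did not overlap. *Cpt2*, the inner membrane enzyme that turns acylcarnitines back to acyl-CoA, fell from 85.2, 81.4 and 105 to 22.2, 46.5 and 45.5 RPKM (log2 fold change −1.29 ± 0.32 (SE), adjusted p = 0.0179), and its lowest library was the one with high Kupffer markers. *Cpt1a*, which makes the acylcarnitines and is regarded as the controlled step of the pathway, stood at 237, 56.3 and 92.5 RPKM in *Lpin1*+/+ and at 25.0, 55.5 and 55.3 RPKM in *Lpin1*-/- liver, just short of overlap. It had the widest spread of the members among fasted *Lpin1*+/+ libraries (SD 1.04 on the log2 scale, against a median of 0.322 over the members) and did not pass the test. Among the alternatives run, it was called only when replicate 2 of the fasted *Lpin1*+/+ group was left out. *Acsl5*, another long-chain synthetase, stood at 83.8, 103 and 112 RPKM and 124, 86.1 and 70.1 RPKM, and its groups overlapped.

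The acyl-CoA dehydrogenases carry out the first oxidation of each round and are named for the chain length they prefer. *Acadm*, for medium chains, had replicates that lay close together, with 309, 321 and 329 RPKM in fasted *Lpin1*+/+ and 118, 125 and 143 RPKM in fasted *Lpin1*-/- liver (log2 fold change −1.31 ± 0.24 (SE), adjusted p = 0.00413). *Acadvl*, for very long chains, fell from 249.8, 255 and 289 to 135, 149 and 168 RPKM (log2 fold change −0.81 ± 0.19 (SE), adjusted p = 0.0145). *Acadl*, for long chains, fell from 159, 169 and 189.6 to 79.2, 103 and 108 RPKM (log2 fold change −0.84 ± 0.20 (SE), adjusted p = 0.014). *Acads*, for short chains, stood at 141, 199 and 203 RPKM and 127, 106 and 127 RPKM and did not pass the test. In all 4 genes every *Lpin1*-/- library was below every *Lpin1*+/+ library. *Acadvl* overlaps the gene *Dvl2* on the opposite strand, which held 21.3% of its read-length sequences.

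*Hadha* (chr5:30118304-30155162) and *Hadhb* (chr5:30155248-30184593) encode the subunits of the trifunctional protein, which carries out the last 3 steps for long chains. They lie head to head on chromosome 5 with 85 bases between their gene models, and that stretch, chr5:30155163-30155247 on GRCm38.p6, is shown on the strand of *Hadhb* because the genes share it as their upstream sequence. It holds 2 GC boxes, in capitals.
Hadha-Hadhb: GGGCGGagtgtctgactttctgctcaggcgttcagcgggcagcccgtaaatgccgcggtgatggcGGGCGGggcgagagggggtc
*Hadha* fell from 152, 107 and 139 RPKM in fasted *Lpin1*+/+ to 37.5, 51.0 and 62.9 RPKM in fasted *Lpin1*-/- liver (log2 fold change −1.39 ± 0.26 (SE), adjusted p = 0.00473). *Hadhb* fell from 75.4, 76.8 and 91.8 to 23.9, 26.5 and 38.4 RPKM (log2 fold change −1.45 ± 0.25 (SE), adjusted p = 0.00286). The ratio of *Hadha* to *Hadhb* RPKM lay between 1.39 and 2.02 in *Lpin1*+/+ and between 1.57 and 1.92 in *Lpin1*-/- fasted libraries, ranges that overlapped. Of the *Hadhb* read-length sequences 17.3% were also found in other gene models, so its level is less certain.

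Of the other 3 enzymes of the spiral, *Hadh* passed the test. *Hadh*, the short-chain hydroxyacyl-CoA dehydrogenase, fell from 176, 231 and 285 to 122, 80.8 and 81.6 RPKM (log2 fold change −1.27 ± 0.25 (SE), adjusted p = 0.00551). *Echs1*, the short-chain enoyl-CoA hydratase that acts just before it, stood at 188, 329 and 277 RPKM in *Lpin1*+/+ and at 313, 200.0 and 236 RPKM in *Lpin1*-/- liver, the highest log2 fold change of the 32 members (log2 fold change −0.07 ± 0.24 (SE), adjusted p = 0.864). Its groups overlapped, and its sign turned with 3 of the alternatives, to at most 0.10. *Acaa2*, the thiolase that ends each round, stood at 477, 625 and 715 RPKM and 382, 364 and 349 RPKM, which did not overlap but did not pass the test.

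Both genes of the auxiliary enzymes for unsaturated chains fell. *Eci1*, which shifts double bonds into the position the spiral needs, fell from 130.4, 209 and 208 to 72.8, 69.6 and 70.1 RPKM (log2 fold change −1.32 ± 0.26 (SE), adjusted p = 0.00577). *Decr1*, the mitochondrial dienoyl-CoA reductase, fell from 137, 251 and 233 to 139.5, 87.1 and 78.7 RPKM (log2 fold change −1.01 ± 0.29 (SE), adjusted p = 0.0328), with 1 *Lpin1*-/- library above the lowest *Lpin1*+/+ library. The electron transfer flavoprotein and its dehydrogenase pass the electrons of the first oxidation to the respiratory chain. *Etfdh*, the dehydrogenase, fell from 223, 191 and 218 to 76.0, 99.3 and 106 RPKM (log2 fold change −1.17 ± 0.21 (SE), adjusted p = 0.00329). The flavoprotein subunits did not pass the test: *Etfa* stood at 279, 406 and 378 RPKM and 272, 218 and 249 RPKM, and *Etfb* at 314, 640.4 and 543 RPKM and 442, 299 and 297 RPKM. *Etfb* shared 40.6% of its read-length sequences with the overlapping gene model *Gm45233*.

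**Figure D3:**
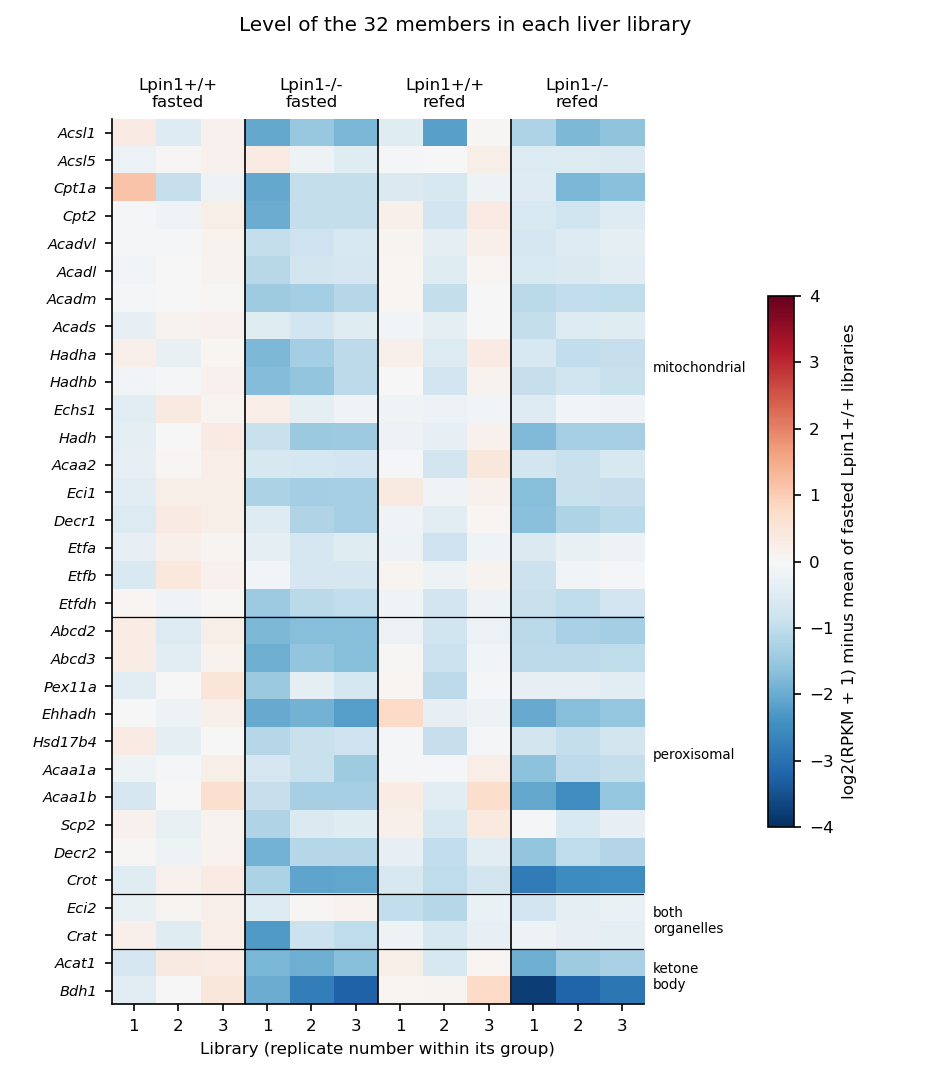
Level of each member (y axis, by compartment) in each of the 12 libraries (x axis, replicate numbers within the 4 groups), as log2(RPKM + 1) minus the mean of the fasted *Lpin1*+/+ libraries, from blue (lower) to red (higher). Both *Lpin1*-/- groups are blue for most members (mean over the 32 members −1.22, −1.12 and −1.12 fasted and −1.14, −1.05 and −0.94 refed), and replicate 2 of refed *Lpin1*+/+ is paler blue (mean −0.63) beside 0.04 and −0.06 in its group.

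Both genes of peroxisomal transporters fell. *Abcd3*, the abundant transporter of the peroxisomal membrane, fell from 148, 87.3 and 131 RPKM in fasted *Lpin1*+/+ to 30.3, 39.3 and 35.8 RPKM in fasted *Lpin1*-/- liver (log2 fold change −1.74 ± 0.26 (SE), adjusted p = 0.00147). *Abcd2*, a transporter of very long-chain acyl-CoA, had the lowest level of the 32 members and fell from 4.63, 2.09 and 4.39 to 0.316, 0.403 and 0.41 RPKM (log2 fold change −1.72 ± 0.25 (SE), adjusted p = 0.00121). On this scale the change of so low a gene is understated, since 1 RPKM is added before the logarithm. *Pex11a*, which acts in the division of peroxisomes, stood at 48.1, 66.1 and 93.6 RPKM and 23.3, 52.2 and 40.8 RPKM, overlapped between the groups and did not pass the test.

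The peroxisomal enzymes of the spiral were led by *Ehhadh* (chr16:21761287-21787807), the L-bifunctional protein and a classical PPARα target. It stood at 220.1, 188 and 248 RPKM in fasted *Lpin1*+/+ and at 53.4, 57.3 and 46.5 RPKM in fasted *Lpin1*-/- liver (log2 fold change −2.04 ± 0.27 (SE), adjusted p = 0.000854). *Hsd17b4*, the D-bifunctional protein that acts on branched chains and bile acid intermediates, fell from 254, 156 and 203 to 89.8, 108 and 112 RPKM (log2 fold change −0.95 ± 0.26 (SE), adjusted p = 0.0259). Its log2 fold change was the nearest to 0 of the 8 peroxisomal calls. *Decr2*, the peroxisomal dienoyl-CoA reductase, fell from 133, 111 and 139 to 33.7, 56.8 and 57.3 RPKM (log2 fold change −1.39 ± 0.26 (SE), adjusted p = 0.00415). *Crot*, which makes carnitine esters of the shortened chains so that they can leave the peroxisome, fell from 201, 321 and 359 to 118, 65.0 and 66.0 RPKM (log2 fold change −1.83 ± 0.27 (SE), adjusted p = 0.00153).

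The peroxisomal thiolases *Acaa1a* and *Acaa1b* are close paralogs on chromosome 9. *Acaa1b* shared 25.6% of its read-length sequences with *Acaa1a*, so the split of reads between them is uncertain. *Acaa1a* fell from 178, 196 and 241 to 128, 110.0 and 76.0 RPKM in fasted liver (log2 fold change −0.99 ± 0.24 (SE), adjusted p = 0.017). *Acaa1b* fell from 327, 520.3 and 808 to 274, 206 and 207 RPKM (log2 fold change −1.18 ± 0.38 (SE), adjusted p = 0.0475) and was the weakest of the 22 calls. *Scp2*, whose longer product is a thiolase for branched chains, had the highest level of the members, 1381, 1006 and 1360.5 RPKM in *Lpin1*+/+ and 537, 837 and 889 RPKM in *Lpin1*-/- liver. It did not pass the test, though its groups did not overlap, and 26.5% of its read-length sequences occurred in a pseudogene, *Scp2-ps2*.

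Of the members placed in both organelles, *Crat*, which moves acetyl groups between CoA and carnitine, fell from 35.7, 21.7 and 37.4 to 5.59, 16.5 and 14.6 RPKM (log2 fold change −1.38 ± 0.34 (SE), adjusted p = 0.0157). *Eci2*, a delta-3,delta-2-enoyl-CoA isomerase, stood at 196, 262 and 281 RPKM in *Lpin1*+/+ and at 166, 249 and 268 RPKM in *Lpin1*-/- liver, with overlapping groups.

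The second comparison set the genotypes side by side after refeeding. Of the 32 members, 9 passed the test, all lower in *Lpin1*-/- liver, where 4.07% of all genes tested were called lower. The 9 were *Hadh*, *Eci1*, *Decr1*, *Ehhadh*, *Acaa1a*, *Acaa1b*, *Crot*, *Acat1* and *Bdh1*, and each had also been called in fasted liver. The median log2 fold change of the members was −0.67, against −0.07 over all genes tested, and 29 of 32 lay below 0. For 17 members every *Lpin1*-/- library was below every *Lpin1*+/+ library, against 19.1% of all genes tested. By class, 3 of 18 mitochondrial members (median −0.62), 4 of 10 peroxisomal members (median −0.77), neither of the members of both organelles and both ketone body genes were called. The member sums were 5430 to 9210 RPKM in *Lpin1*+/+ and 4353 to 4895 RPKM in *Lpin1*-/- libraries.

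Replicate 2 of the refed *Lpin1*+/+ group, the library with high Kupffer markers, gave the lowest of the *Lpin1*+/+ member sums. Without it 15 members were called and the median was −0.94. Without it and replicate 1 of the fasted *Lpin1*-/- group 18 were called, and *Acsl1*, *Cpt2*, *Acadm*, *Hadha*, *Hadhb*, *Etfdh*, *Abcd2*, *Abcd3* and *Decr2* joined the 9. The share of all genes called in these fits is not given here, so the rise cannot be called particular to the members. Without replicate 1 of the refed *Lpin1*-/- group 4 calls remained, *Ehhadh*, *Acaa1b*, *Crot* and *Bdh1*, which were also kept in each of the other 11 fits without 1 library. Without replicate 1 or 3 of the refed *Lpin1*+/+ group 6 remained, and 5 after the libraries were rescaled by their median ratio. With the replicate number as a block 8 were called, without *Decr1* (adjusted p = 0.0707). With that block in the 6 refed libraries alone 6 were called, without *Decr1*, *Eci1* and *Acat1* (adjusted p from 0.0522 to 0.0685).

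Of the 9, 4 encode peroxisomal enzymes. *Ehhadh* stood at 373, 172 and 187 RPKM in refed *Lpin1*+/+ and at 53.5, 65.9 and 74.2 RPKM in refed *Lpin1*-/- liver (log2 fold change −1.82 ± 0.27 (SE), adjusted p = 0.00423). *Crot* stood at 184, 142 and 169.8 RPKM and 40.0, 48.8 and 50.5 RPKM (log2 fold change −1.81 ± 0.27 (SE), adjusted p = 0.00452). *Acaa1b* stood at 639, 386 and 847 RPKM and 124, 90.9 and 177 RPKM (log2 fold change −2.23 ± 0.38 (SE), adjusted p = 0.00792). In each of these peroxisomal genes the genotypes did not overlap. *Acaa1a* stood at 196, 198 and 243 RPKM and 65.0, 97.3 and 105 RPKM (log2 fold change −1.27 ± 0.24 (SE), adjusted p = 0.0132). The RPKM ratio of *Acaa1a* to *Acaa1b* was 0.287 to 0.512 in refed *Lpin1*+/+ and 0.523 to 1.07 in refed *Lpin1*-/- libraries, just short of overlap. In fasted liver the ranges overlapped, at 0.299 to 0.545 and 0.367 to 0.534. The ratio was not tested, and it depends on the uncertain split of reads between these paralogs.

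**Figure D4:**
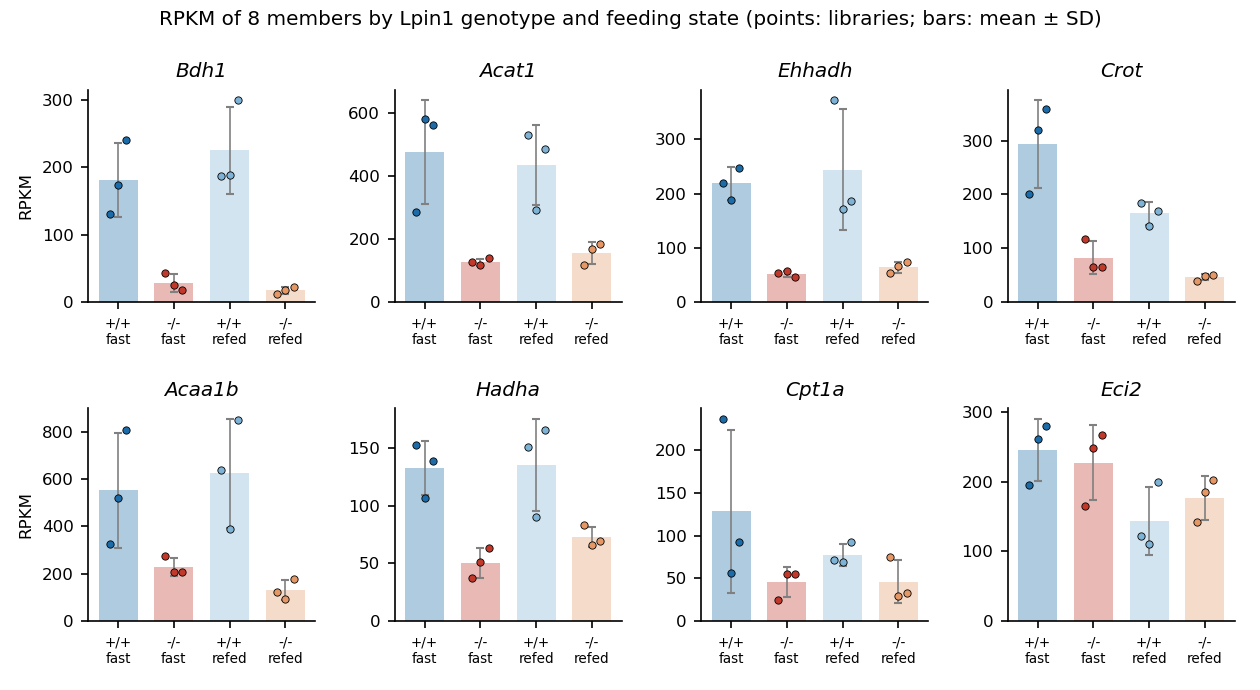
RPKM (y axis, from 0) of 8 members in the 4 groups (x axis, *Lpin1* genotype and feeding state), with points for the 3 libraries of each group and bars for the mean ± SD. *Bdh1*, *Acat1*, *Ehhadh*, *Crot*, *Acaa1b* and *Hadha* show both *Lpin1*-/- groups below both *Lpin1*+/+ groups, while in *Cpt1a* and *Eci2* the refed genotypes overlap.

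The mitochondrial calls in refed liver were *Hadh*, *Eci1* and *Decr1*. *Hadh* stood at 191, 178 and 253 RPKM in *Lpin1*+/+ and at 65.3, 89.6 and 89.2 RPKM in *Lpin1*-/- liver (log2 fold change −1.34 ± 0.25 (SE), adjusted p = 0.0107). *Eci1* stood at 230.5, 163 and 199.6 RPKM and 54.0, 95.3 and 94.4 RPKM (log2 fold change −1.30 ± 0.26 (SE), adjusted p = 0.0147). *Decr1* stood at 182, 145 and 212 RPKM and 62.0, 84.6 and 93.7 RPKM (log2 fold change −1.16 ± 0.29 (SE), adjusted p = 0.0389). The genotypes did not overlap in any of the 3. *Eci2* had the highest log2 fold change of the 32 members, with 122, 111 and 200.4 RPKM in *Lpin1*+/+ and 142, 186 and 203 RPKM in *Lpin1*-/- liver (log2 fold change 0.33 ± 0.28 (SE), adjusted p = 0.52), and its groups overlapped.

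The other 22 members did not pass the test in refed liver. Among the enzymes of entry, *Acsl1* stood at 250.3, 77.4 and 359 RPKM in *Lpin1*+/+ and 149, 99.2 and 115 RPKM in *Lpin1*-/- liver, *Acsl5* at 93.2 to 117 and 66.2 to 67.7 RPKM, *Cpt1a* at 68.5 to 92.6 and 29.8 to 74.6 RPKM, and *Cpt2* at 52.3 to 113 and 51.3 to 62.8 RPKM. Only *Acsl5* of these 4 did not overlap. The dehydrogenases ranged from 199 to 302 RPKM in *Lpin1*+/+ and 167 to 203 RPKM in *Lpin1*-/- liver for *Acadvl*, from 123 to 182 and 113 to 129.6 RPKM for *Acadl*, from 166 to 337 and 150.0 to 160.2 RPKM for *Acadm*, and from 135 to 180.5 and 91.6 to 129 RPKM for *Acads*. *Acadm* and *Acads* did not overlap between genotypes.

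For the trifunctional protein, *Hadha* stood at 90.2 to 165 and 66.1 to 83.0 RPKM and *Hadhb* at 47.1 to 89.9 and 42.0 to 46.1 RPKM in refed *Lpin1*+/+ and *Lpin1*-/- liver, with no overlap. *Echs1* lay at 219.6 to 239 and 179 to 241 RPKM, *Acaa2* at 360.4 to 821 and 319 to 385 RPKM, *Etfa* at 195 to 311 and 234 to 303 RPKM, *Etfb* at 411 to 522 and 264 to 451 RPKM, and *Etfdh* at 122 to 185 and 103 to 123 RPKM, all overlapping. Of the peroxisomal members, *Abcd2* lay at 1.61 to 2.88 and 0.773 to 1.16 RPKM, *Abcd3* at 64.7 to 123 and 56.7 to 58.7 RPKM, and *Decr2* at 64.1 to 101 and 41.9 to 62.9 RPKM, all without overlap. *Pex11a* (31.5 to 70.4 and 48.6 to 53.0 RPKM), *Hsd17b4* (105 to 195 and 104 to 121 RPKM), *Scp2* (801 to 1633 and 806 to 1170.4 RPKM) and *Crat* (19.3 to 26.7 and 23.2 to 26.4 RPKM) overlapped.

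The genotype difference was the more negative in fasted liver for 25 of the 32 members and in refed liver for 7. Whether it differed between the feeding states was tested as an interaction, in which 0 of the 32 members passed the limma test, against 1.28% of all genes tested. An unadjusted p below 0.05 was found for 5 members (*Hadhb*, *Etfdh*, *Abcd2*, *Abcd3* and *Crat*), against 18.1% of all genes tested. The interaction was highest for *Crat* (log2 difference 1.47 ± 0.48 (SE), adjusted p = 0.144) and lowest for *Acaa1b* (log2 difference −1.05 ± 0.53 (SE), adjusted p = 0.326), and its median was 0.42, against 0.09 over all genes tested. The median was 0.17 without replicate 2 of the refed *Lpin1*+/+ group.

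The feeding comparisons asked how refeeding changed the members within each genotype. In *Lpin1*+/+ liver 0 of the 32 members passed the limma test, against 1.72% of all genes tested. An unadjusted p below 0.05 was found for 3 members (*Decr2*, *Crot* and *Eci2*, each with a value below 0), against 13.9% of all genes tested. The median log2 fold change of refed over fasted was −0.17, against 0.19 over all genes tested, and was 0.02 without replicate 2 of the refed group. *Acsl1* had the lowest value (log2 fold change −0.87 ± 0.46 (SE), adjusted p = 0.43), with 445, 246 and 393 RPKM fasted and 250.3, 77.4 and 359 RPKM refed, where the low value of 77.4 RPKM belonged to the library with high Kupffer markers. *Bdh1* had the highest (log2 fold change 0.32 ± 0.35 (SE), adjusted p = 0.73). The members summed to 7406 to 9512 RPKM in fasted and 5430 to 9210 RPKM in refed *Lpin1*+/+ libraries.

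In *Lpin1*-/- liver 1 of the 32 members, *Crat*, passed the test and was higher after refeeding, against 17.8% of all genes tested that were called higher. Its values were 5.59, 16.5 and 14.6 RPKM in fasted and 26.4, 24.4 and 23.2 RPKM in refed *Lpin1*-/- liver, without overlap (log2 fold change 1.08 ± 0.34 (SE), adjusted p = 0.0422). The call was lost, at adjusted p of 0.118 at most, without any 1 of the 3 refed *Lpin1*-/- libraries, without replicate 1 of the fasted *Lpin1*-/- group, and without replicate 3 of the fasted or replicates 1 or 3 of the refed *Lpin1*+/+ group. It was also lost with no filter on low values (adjusted p = 0.0719), after rescaling (0.0815), with a replicate block (0.066), with only the 6 libraries compared in the fit (0.0677) and without both libraries with high Kupffer markers (0.108). In this comparison 5 members had an unadjusted p below 0.05 (*Crat*, *Hadhb* and *Abcd3* with values above 0 and *Acaa1b* and *Crot* with values below 0), against 36.1% of all genes tested. *Acaa1b* had the lowest value (log2 fold change −0.84 ± 0.38 (SE), adjusted p = 0.129). The median over the members was 0.15, against 0.25 over all genes tested. After rescaling of the libraries the medians were −0.10 for the members and 0.06 over all genes in *Lpin1*-/- liver, and −0.41 and −0.001 in *Lpin1*+/+ liver.

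**Figure D5:**
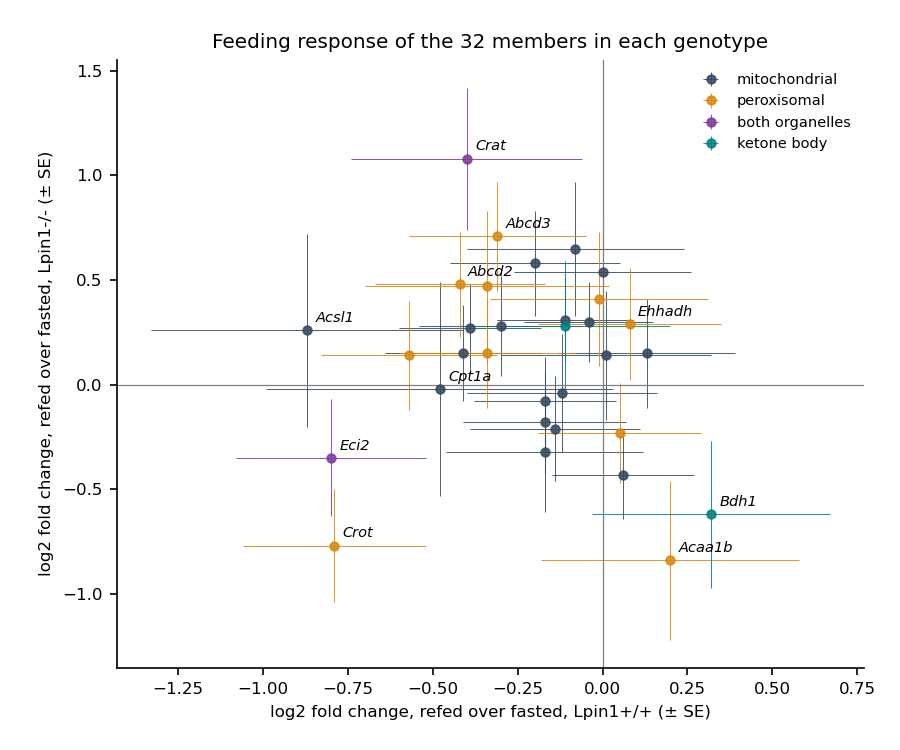
log2 fold change of refed over fasted liver for each of the 32 members in *Lpin1*+/+ (x axis) and *Lpin1*-/- mice (y axis), with bars for ± SE and colors for the compartment. *Crat*, at −0.40 and 1.08, is the one member called, in *Lpin1*-/- mice, and is the highest point.

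Other genes of the pathway, 57 in a list chosen with results of these data known, were read from the same fit, and 53 were tested. In fasted liver 17 were lower and 4 higher in *Lpin1*-/- mice, with a median of −0.72, where 13.2% of all genes tested were called lower and 5.63% higher. *Lonp2*, the peroxisomal protease, fell from 143, 163 and 201 to 37.5, 32.4 and 44.0 RPKM (log2 fold change −2.12 ± 0.19 (SE), adjusted p = 0.00017). *Acad9*, a mitochondrial acyl-CoA dehydrogenase that also serves the assembly of complex I, fell from 17.4, 15.0 and 16.3 to 7.61, 5.20 and 5.74 RPKM (log2 fold change −1.28 ± 0.18 (SE), adjusted p = 0.00101). The higher genes with the lowest p were *Slc16a6*, a ketone body transporter, with 1.51, 1.65 and 1.51 RPKM in *Lpin1*+/+ and 6.75, 6.62 and 5.13 RPKM in *Lpin1*-/- liver (log2 fold change 1.48 ± 0.17 (SE), adjusted p = 0.000399), and *Pdk4*, the kinase that shuts off pyruvate dehydrogenase (log2 fold change 2.65 ± 0.36 (SE), adjusted p = 0.000901). *Pdk4* stood at 1.98, 0.898 and 1.55 RPKM in *Lpin1*+/+ and at 7.58, 21.6 and 17.4 RPKM in *Lpin1*-/- liver.

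In refed liver 6 of the 53 were lower and 1 higher, where 4.07% of all genes tested were called lower and 2.60% higher. *Acsl3*, a synthetase of lipid droplets and endoplasmic reticulum, was lower (log2 fold change −1.23 ± 0.20 (SE), adjusted p = 0.00691), as was *Fabp1*, the liver fatty acid binding protein, with 8837, 4563 and 13593 RPKM in *Lpin1*+/+ and 848, 813 and 1417 RPKM in *Lpin1*-/- mice (log2 fold change −3.04 ± 0.62 (SE), adjusted p = 0.0158). The *Fabp1* call was lost without replicate 1 or 3 of the refed *Lpin1*+/+ or replicate 1 or 2 of the refed *Lpin1*-/- group (adjusted p of 0.0652 at most). *Nudt19*, a peroxisomal hydrolase of CoA, was higher (log2 fold change 0.84 ± 0.17 (SE), adjusted p = 0.0172), and its call was lost without replicate 1 or 3 of the refed *Lpin1*+/+ or replicate 2 or 3 of the refed *Lpin1*-/- group and with the block in the 6 refed libraries (adjusted p of 0.0752 at most). With feeding, 1 of the 53, *Slc16a6*, was called in *Lpin1*+/+ liver, where 1.72% of all genes tested were called. It was higher after refeeding (log2 fold change 0.99 ± 0.17 (SE), adjusted p = 0.0173). The call was lost after rescaling, with only the 6 libraries compared in the fit, and without replicate 2 or 3 of the fasted or any 1 replicate of the refed *Lpin1*+/+ group.

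In *Lpin1*-/- liver 7 of the 53 were higher and 4 lower after refeeding, where 17.8% of all genes tested were called higher and 2.92% lower. *Lonp2* (log2 fold change 0.90 ± 0.19 (SE), adjusted p = 0.009) and *Slc25a17*, the peroxisomal carrier of CoA (log2 fold change 0.94 ± 0.21 (SE), adjusted p = 0.0102), rose. *Acsl3* (log2 fold change −1.42 ± 0.20 (SE), adjusted p = 0.0013) and *Pdk4* (log2 fold change −2.12 ± 0.36 (SE), adjusted p = 0.00302) fell. The *Slc25a17* call was lost without replicate 2 of the refed *Lpin1*-/- group and after rescaling, as was that of *Lonp2* after rescaling.

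Skipped exons of the members were compared between genotypes from the counts of reads that include or skip an exon, given for each library without its replicate number. In fasted liver 809 events in 31 members were tested and 99, in 20 members, were called (12.2%). Of all 69644 events tested 11.3% were called, so in this fit the share was near the background. Of the 99, 67 had lower inclusion in *Lpin1*-/- liver, and 18, in 9 members, differed by 10 percentage points or more. Direction and size were not counted over all events tested, so neither can be called particular to the members. In refed liver 8 of 754 events (1.06%), in 6 members, were called, against 0.970% of all 65231 events tested. Of the exons called, 7 were called in both states, among 93 exons called in fasted and 8 called in refed liver. Leaving out 1 library at a time gave 36 to 158 calls among the members when fasted and 0 by limma when refed, where 106 to 145 had an unadjusted p below 0.05. The same fits gave 3821 to 9479 calls over all events when fasted and 0 to 15 when refed. Several events share an exon, so events are not independent.

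Inclusion was estimated from counts per length of each form, with positions on GRCm38. A *Decr2* exon of 93 bases (chr17:26084037-26084129) was included in 99.29, 100 and 99.26% of transcripts in fasted *Lpin1*+/+ and 58.99, 71.03 and 79.25% in fasted *Lpin1*-/- libraries (limma, adjusted p = 0.000802, at least 141 counts a library). An *Acsl1* exon (chr8:46472614-46472706) was included in 8.09, 5.33 and 9.83% and 58.77, 72.08 and 40.33% (adjusted p = 0.00356), on 26 to 78 counts. An *Etfa* exon (chr9:55487421-55487453) was included in 21.22, 8.34 and 18.33% in *Lpin1*+/+ and in 0% in *Lpin1*-/- libraries (adjusted p = 0.00124), on 14 to 52 counts, where a count of 0 allows an inclusion of up to 4.21% in the shallowest *Lpin1*-/- library, counting error only. These 3 exons showed the larger shifts among the members named. An *Eci2* exon (chr13:34986067-34986187) was at 100% in all *Lpin1*+/+ and 94.97, 97.69 and 99.45% in *Lpin1*-/- libraries (adjusted p = 0.00122), and a *Scp2* exon (chr4:108071257-108071409) at 99.99% and 98.76, 99.52 and 99.65% (adjusted p = 0.0011).

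In refed liver an *Acaa1b* exon (chr9:119156281-119156518) was included in 90.32, 96.14 and 79.26% of *Lpin1*+/+ and 28.95, 56.31 and 35.71% of *Lpin1*-/- transcripts (adjusted p = 0.0437), on 17 to 182 counts. The other 4 members named changed by 2.10 percentage points or less. A *Hadha* exon (chr5:30142719-30142838) was at 99.93, 100 and 99.73% and 98.10, 97.42 and 97.84% (adjusted p = 0.0334), and a *Decr2* exon (chr17:26083576-26083680) at 99.91, 100 and 100% and 98.31, 99.23 and 99.07% (adjusted p = 0.0332). An *Eci2* exon (chr13:34988283-34988352) was at 100, 99.86 and 99.92% and 98.40, 98.96 and 97.58% (adjusted p = 0.0415), and a *Scp2* exon (chr4:108073834-108073891) at 0% (up to 0.0227% allowed by a count of 0) and 0.18, 0.10 and 0.09% (adjusted p = 0.021).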

How the data were processed

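Liver RNA of 12 mice was sequenced as stranded 69-base paired reads. The submitters' processing notes name HISAT2 2.0.5, HTSeq 0.6.0, DESeq2 1.20.0 and the GRCm38 build. The authors deposited RPKM values (Ensembl 84 genes) and, for skipped exons, rMATS tables with counts of inclusion and skipping reads. The same deposited tables give the effective length of each form in bases, recorded as a score and used here to scale the counts. The authors' own p-values and inclusion differences in them were not used. Tables of rows the authors selected by their test were left out. The absolute depth of the libraries is unknown.

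Groups followed the sample titles. One limma 3.58.1 model (R 4.3.3, variance trend) of the 4 groups was fitted to log2(RPKM + 1). Fold changes on this scale understate low genes. For exon events, where no library had fewer than 10 counts, limma was applied within each feeding state to log2 of inclusion over skipping, after 0.5 was added to each count. The groups in the exon tables followed the order in which each table names them, checked against counts shared between tables. Replicate numbers come from the sample titles. In refed liver every same-numbered pair of the genotypes deviated together from the group means (correlation 0.162 to 0.297). The titles state no pairing of mice. Same-numbered fasted *Lpin1*+/+ and refed *Lpin1*-/- libraries, which share neither genotype nor feeding state, correlated more strongly (0.39 to 0.743). Whether the numbers pair mice is therefore unknown. A fit with the number as a block within refed liver was added as an alternative after seeing the data. Both procedures were tested on simulated data. Alternatives were another pseudocount, filter, scaling, a replicate block and libraries left out. Gene positions and exon overlaps came from GENCODE M21 on GRCm38, promoters from RefSeq. Read-length sequences are the 69-base stretches of a gene's transcripts.

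The members and all gene lists were chosen with earlier results of these data known. All members are named with RPKM, and tests are given for those called and for the highest and lowest of each comparison; other pathway genes are the 2 of lowest adjusted p in each direction, and exons up to 5 members per feeding state. p-values measure the spread between individual mice.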

Additional observations from a re-analysis of the deposited data

Results flagged for a closer look

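Of the genes named, 3 genes of the pathway outside the 32 members differed between genotypes in their response to refeeding, by limma's test of the difference itself. *Acsl3* had a difference of −2.26 on the log2 scale (adjusted p = 0.00664), with 2.60, 1.53 and 2.13 RPKM in fasted and 3.27, 5.50 and 4.99 RPKM in refed *Lpin1*+/+ liver, and 5.04, 5.32 and 5.45 RPKM in fasted and 1.52, 1.24 and 1.29 RPKM in refed *Lpin1*-/- liver. *Slc16a6* had a difference of −1.61 (adjusted p = 0.0104), with 3.91, 4.62 and 3.76 RPKM in refed *Lpin1*+/+ and 3.17, 3.88 and 3.89 RPKM in refed *Lpin1*-/- liver. *Lonp2* had a difference of 1.32 (adjusted p = 0.0425), with 133, 106 and 138 RPKM and 61.1, 76.4 and 77.1 RPKM in refed liver of the same genotypes. The *Lonp2* difference did not pass in 13 of its 18 alternatives (adjusted p of 0.146 at most), and that of *Slc16a6* was lost when both libraries with high Kupffer markers were left out (adjusted p = 0.0538). *Acsl3* passed in all 17 of its own.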

How the results depend on the processing

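The 22 members called in fasted liver had values below 0 under every alternative run, and 13 to 23 members were called when 1 library was left out. Results that changed sign were *Echs1* in fasted liver (0.06 after rescaling, and −0.30 to 0.10 with 1 library left out) and the feeding medians. Among members that did not pass the test, the value over all alternatives also crossed 0 in fasted liver for *Acsl5* (−0.34 to 0.06) and *Eci2* (−0.28 to 0.09), and in refed liver for *Etfa* (−0.17 to 0.17), *Pex11a* (−0.39 to 0.18), *Crat* (−0.04 to 0.20) and *Echs1* (−0.16 to 0.06). In refed liver 5 members were called after rescaling, and leaving out 1 library gave 4 to 15 calls and medians of −0.94 to −0.50. Calls over all genes in the fits with libraries left out are not given here. Without both libraries with high Kupffer markers there were 18 calls, with a median of −0.94 between genotypes in refed liver, 0.02 for refed over fasted *Lpin1*+/+ liver and 0.09 for the interaction. With 1 library left out the last 2 ranged from −0.29 to 0.02 and from 0.17 to 0.55. After rescaling, the medians of refed over fasted were −0.41 in *Lpin1*+/+ and −0.10 in *Lpin1*-/- liver. With feeding in *Lpin1*-/- liver 0 members were called with no filter, after rescaling and without both libraries, 2 (*Abcd2* and *Abcd3*, not *Crat*) when only the 6 libraries compared were fitted, and 0 to 2 when 1 library was left out. With 1 added to each count, 165 of 809 member exon events were called in fasted liver, against 8960 of all 69644 events. In refed liver 38 of 754 were called, against 1334 of all 65231. Both shares were above those over all events, so nearness to the background depended on the setting. With 1 library left out 36 to 158 member events were called in fasted and 0 by limma in refed liver. The fits with 36 (of 810) and 158 (of 815) called 3821 of 69803 and 9479 of 69995 over all events.

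Rescaling moved the median of all genes from 0.19 to −0.001 in the feeding response of *Lpin1*+/+ and from 0.25 to 0.06 in that of *Lpin1*-/- mice. It moved the share of higher genes among all genes called from 29.9% to 41.0% between genotypes in fasted liver, from 39.0% to 57.8% in refed liver, from 88.4% to 64.0% with feeding in *Lpin1*+/+ mice and from 85.9% to 68.8% in *Lpin1*-/- mice. In refed liver all 3 same-numbered pairs of the genotypes had a correlation above 0.1, and the block there is given with the results. In fasted liver 0 of 3 did (−0.474 to −0.226), and between feeding states 1 of 3 in *Lpin1*+/+ and 0 of 3 in *Lpin1*-/- mice. With a replicate block over all 12 libraries 21 members were called in fasted liver, without *Decr1* (adjusted p = 0.0575), 8 in refed liver and 0 with feeding in *Lpin1*-/- mice. For exon events no fit with a replicate block was possible because the exon tables carry no replicate numbers.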
